A study of Homo sapiens with 17 samples.

Results

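The transcripts described here are long RNAs whose symbol ends in -AS1, the suffix given to an RNA that is read from the strand opposite a named gene. They were chosen by level, with earlier results of these data known. A symbol had to have a mean of 10 or more normalised counts over all libraries in at least 1 of the 2 deposited tables. This gave 73 members out of 364 -AS1 symbols and of 14613 genes listed in all, and 55 of the 73 reached that mean in both tables. Because the mean includes every group, a transcript that is high in 1 group only could enter through that group. The members just inside the limit were DLG5-AS1 with a larger table mean of 10.1, RUNDC3A-AS1 with 10.2 and STARD7-AS1 with 10.8. The symbols just outside were PDCD4-AS1 with 9.57, DHRS4-AS1 with 9.26 and TRIM52-AS1 with 9.10.

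All 17 libraries came from PC3M, a metastatic prostate cancer cell line, in 7 groups. In the proteotoxic stress table, cells transfected with the control siRNA siNT received DMSO (2 libraries) or MG132, a proteasome inhibitor, at 2.5 µM for 4 h (2 libraries). Cells transfected with siJMJD6, against the JmjC-domain hydroxylase JMJD6, received the same MG132 treatment (2 libraries), as did HSF1 KO cells, which lack the heat shock transcription factor HSF1 (2 libraries, lettered A and B). In the heat shock table, siNT cells were left at basal conditions (3 libraries) or heated to 42 °C for 1 h and left to recover for 2 h (3 libraries), and siJMJD6 cells were heated in the same way (3 libraries). The transfections lasted 72 h. The labels name no siRNA for the HSF1 KO cells and do not say whether A and B are clones or cultures. In the proteotoxic stress table, the titles of the siNT and siJMJD6 libraries carry X1 or X2. The labels do not say what these marks stand for, and the main fit did not pair by them. There was no unstressed siJMJD6 group, so every knockdown value below was measured in stressed cells. Nothing in the labels says that the replicates were separate cultures, so the p-values measure only the spread between these libraries.

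Many antisense RNAs start beside the promoter of a protein-coding gene and run away from it. RNA polymerase II leaves such CpG-rich promoters in both directions, and the upstream product is often cut and polyadenylated early and then degraded by the nuclear exosome, the 3′-to-5′ RNase complex that MTREX-containing adaptors guide to nuclear RNA. Other antisense RNAs start further downstream and cross the exons of the sense gene. The libraries counted here were made with a forward 3′-end kit, which sequences 1 short tag upstream of the poly(A) tail of each RNA, so only the polyadenylated form of a transcript was seen and its count does not need dividing by length.

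The normalised totals were 1505826 to 1819640 per library. JMJD6 stood at 167 and 129.8 normalised counts in the siNT MG132 libraries and at 26.6 and 16.6 after siJMJD6, and at 209, 210.2 and 253 after heat shock against 9.72, 7.66 and 14.6 after heat shock with siJMJD6. HSF1 stood at 285 and 175 in the HSF1 KO libraries and at 1687 and 1884 in siNT under MG132. The labels do not say which part of HSF1 was deleted, so tags from an intact 3′ end would not test the knockout. The epithelial markers KRT18 (725 to 1401) and KRT19 (516 to 1096) were present in every library. The prostate marker KLK2 (at most 3.12) was near 0, and TMPRSS2, PTPRC and CD3E had no row in either table. Of the fibroblast-listed genes PDGFRB reached 4.07 at most. COL1A2 was lower in every siJMJD6 library than in every siNT library of the same stress, at 17.1 and 20.3 against 244 and 100.3 under MG132 and at 44.6, 64.0 and 73.5 against 220.3, 230.3 and 254 after heat shock. COL1A1 was higher in those libraries, at 15.9 and 30.9 against 1.06 and 6.58 and at 58.0, 54.1 and 78.5 against 42.5, 25.1 and 37.4, and so was the epithelial KRT8 after heat shock, at 99.3, 137 and 143 against 35.6, 48.1 and 67.5. Their part in the knockdown results was not tested.

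In the GENCODE 29 annotation of GRCh38, 71 of the 73 members could be placed, and HNRNPU-AS1 and MAFG-AS1 could not. The sense partner, the gene named before the suffix, was placed for 70 of them, and in all 70 it lay on the opposite strand. Of the 71, 47 were head to head, meaning that a start of the member and a start of the partner lay within 1000 bp, 20 overlapped the partner otherwise and 3 lay inside it. The median distance from start to start was 244.5 bp, taken between the nearest annotated transcript starts of member and partner. Such a start can lie inside the gene, so head to head need not mean the partner's first start. In 46 members the exons shared bases with exons of the partner. No source used here gives the strand setting of the authors' counting, so reads of those members and of their partners may not have been told apart. GENCODE types 4 of the members, FAM83H-AS1, MMP24-AS1, SPTY2D1-AS1 and TOPORS-AS1, as protein-coding under other names. In RefSeq, 13 of the 73 now carry the suffix -DT, for divergent transcript, in place of -AS1.

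The stretch between the 2 starts is shown for 4 head-to-head pairs that do not overlap, chosen because their members moved in different ways. SSTR5-AS1 and MAN1B1-AS1 rose, as did their partners, after JMJD6 knockdown with heat shock. NCK1-AS1 fell with heat shock, and RAB30-AS1 fell with the knockdown after heat shock. No values are given here for the partners NCK1 and RAB30. Each is read 5′ to 3′ from the partner's start to the member's start on the member's strand, in GRCh38, from the RefSeq promoter table. CG dinucleotides are in capitals.
SSTR5-AS1 to SSTR5 (chr16:1078732-1078780, minus strand): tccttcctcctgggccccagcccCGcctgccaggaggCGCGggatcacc
MAN1B1-AS1 to MAN1B1 (chr9:137086818-137086926, minus strand): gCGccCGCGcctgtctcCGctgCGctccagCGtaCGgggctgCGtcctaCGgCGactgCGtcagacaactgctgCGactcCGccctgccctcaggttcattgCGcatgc
NCK1-AS1 to NCK1 (chr3:136862055-136862207, minus strand): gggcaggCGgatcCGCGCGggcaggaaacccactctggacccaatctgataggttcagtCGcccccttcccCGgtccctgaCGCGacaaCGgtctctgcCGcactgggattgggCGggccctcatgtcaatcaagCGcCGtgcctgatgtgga
RAB30-AS1 to RAB30 (chr11:83071924-83072065, plus strand): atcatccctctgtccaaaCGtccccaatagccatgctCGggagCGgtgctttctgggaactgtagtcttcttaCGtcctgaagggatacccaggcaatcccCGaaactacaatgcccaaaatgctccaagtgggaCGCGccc
These stretches were 49, 109, 153 and 142 bases long and held 3, 14, 13 and 7 CG dinucleotides. In the RefSeq promoter table of GRCh38.p14 (250 bases before to 50 after the start), 57 members were found. Their median GC content was 67% and their median number of CG dinucleotides 26, against 58.7% and 14 over 35116 promoters. The heat shock element of 3 units, GAA and TTC in turn with 2 free bases between them, was in 0 of the 57 and in 0.490% of all promoters. The element of 2 units, GAANNTTC or TTCNNGAA, which the longer one contains, was in 5 of the 57 (8.77%) against 13.5%, and the ATF4 element TGATGNAAT or ATTNCATCA in 0 of the 57 against 0.991%. Both strands were searched, and no match says only that these letters are not in this window.

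The 3′ end is the part that these libraries count. The last 80 bases of an annotated transcript are shown for 3 members that rose and 2 that fell after JMJD6 knockdown in both stresses, from GENCODE 29. The poly(A) signals AATAAA and ATTAAA within the last 50 bases are in capitals.
SSTR5-AS1 (chr16:1064093-1064172, minus strand): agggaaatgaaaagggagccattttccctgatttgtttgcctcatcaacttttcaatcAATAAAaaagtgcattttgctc
MAN1B1-AS1 (chr9:137084946-137085025, minus strand): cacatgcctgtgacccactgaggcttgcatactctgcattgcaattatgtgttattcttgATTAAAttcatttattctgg
KMT2E-AS1 (chr7:105013425-105013504, minus strand): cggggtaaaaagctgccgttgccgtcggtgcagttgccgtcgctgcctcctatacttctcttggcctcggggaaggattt
THAP9-AS1 (chr4:82893009-82893088, minus strand): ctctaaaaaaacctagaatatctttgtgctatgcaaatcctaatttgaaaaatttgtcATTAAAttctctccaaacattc
PRR34-AS1 (chr22:46057131-46057210, plus strand): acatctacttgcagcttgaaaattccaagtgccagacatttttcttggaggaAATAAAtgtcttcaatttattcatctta
Of these 5 ends, that of KMT2E-AS1 held neither signal. Over the 71 placed members, 44 (62.0%) had AATAAA or ATTAAA in the last 50 bases, against 46.2% of 14936 long noncoding genes and 71.3% of 19877 protein-coding genes in GENCODE.

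The members were mostly low in level. The median member had a mean of 19.5 normalised counts over the heat shock libraries and 23.4 over the MG132 libraries. The highest was LRRC75A-AS1, a snoRNA host now named SNHG29, with means of 1233 and 1415. It was followed in the heat shock table by EPB41L4A-AS1, another snoRNA host, with 157, by OIP5-AS1 with 94.5, SSTR5-AS1 with 94.0 and MMP24-AS1 with 93.2. In the MG132 table the next were EPB41L4A-AS1 with 276, MMP24-AS1 with 103 and PRR34-AS1 with 90.8. Between 41 and 69 members reached 10 normalised counts in a library. The largest numbers were those of the siJMJD6 libraries, 62 and 64 under MG132 and 66 to 69 after heat shock, against 45 and 54 in siNT under MG132 and 51 to 55 in siNT after heat shock. A member high only with siJMJD6 could enter through those libraries, so these numbers and the sums below partly follow from the choice by level. The number of all genes that reached 10 in each library was not counted. All members together made up 0.203% to 0.215% of the normalised total in the heat-shocked siJMJD6 libraries and 0.176% to 0.191% in the heat-shocked siNT libraries, and under MG132 these groups overlapped, at 0.200% and 0.231% against 0.204% and 0.232%. Without LRRC75A-AS1, the members together made up 0.152% to 0.160% of the normalised total in the heat-shocked siJMJD6 libraries and 0.102% to 0.109% in the heat-shocked siNT libraries.

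The effect of JMJD6 knockdown in heat-shocked cells was compared first, since 39 of the 70 members tested there changed. Of these, 31 rose and 8 fell at an adjusted p under 0.05 (limma, adjusted over 9831 genes), while 21.4% of all tested genes rose and 24.9% fell. The share of members that rose was 44.3% and the share that fell 11.4%. Among tested genes with a mean between 10 and 100, the range that holds most members, 18.7% rose and 22% fell. The median member effect was 0.58 on the log2(normalised count + 1) scale, against -0.03 over all tested genes. FOXP4-AS1, PGM5-AS1 and TOPORS-AS1 were too low to be tested in this table. DLG5-AS1, EPHA5-AS1, MAN1B1-AS1 and THAP7-AS1 passed the filter only through the siJMJD6 libraries, so they had to differ, and without these 4 the counts were 27 higher and 8 lower of 66. These 66 were still chosen by a mean that includes the siJMJD6 libraries.

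**Figure D1:**
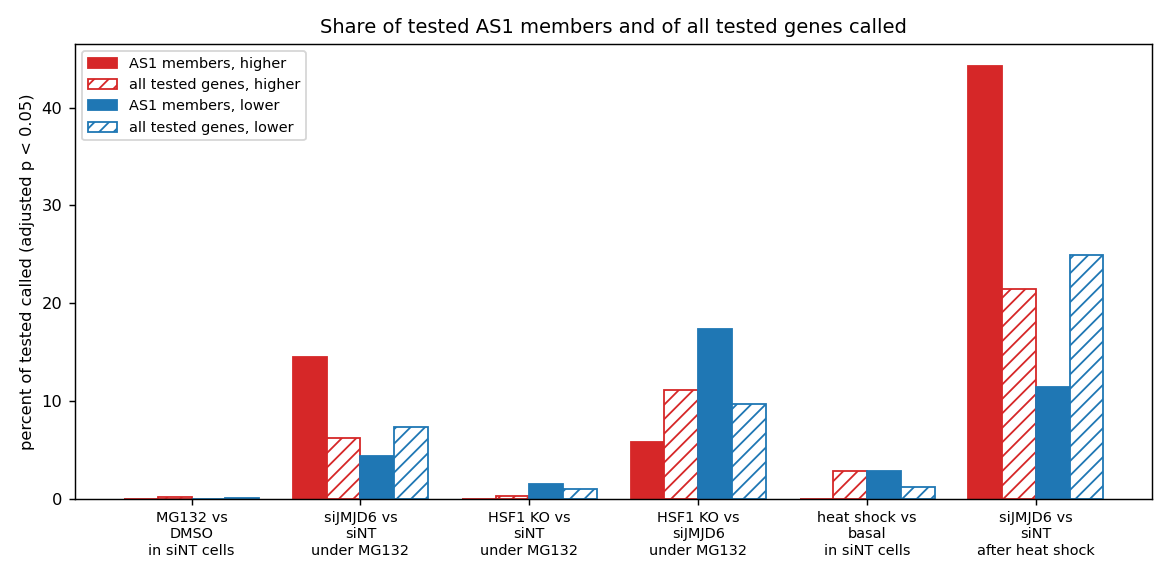
Percent of tested AS1 members (filled bars) and of all tested genes (hatched bars) that were higher (red) or lower (blue) at an adjusted p under 0.05 in each of the 6 comparisons. After heat shock, 44.3% of the tested members were higher with siJMJD6 against 21.4% of all genes, while the MG132 comparison in siNT cells had no called member. The bars include members that passed the filter only through the siJMJD6 libraries. Without the 4 such members of the heat shock table, 27 of 66 were higher with siJMJD6.

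SSTR5-AS1, which starts 50 bp from the somatostatin receptor gene SSTR5 (chr16:1064093-1078731), had 207, 181 and 178 normalised counts in the siJMJD6 libraries and 36.6, 44.8 and 43.5 in the siNT libraries after heat shock. The groups lay far apart, and the siNT heat shock values were within the range of the basal ones or just below it (40.3, 58.3 and 55.7). The log2 difference was 2.16 ± 0.17 (SE), with an adjusted p of 6.12e-13. PPP1R26-AS1, beside a regulatory subunit gene of protein phosphatase 1 (chr9:135462727-135480777), had 80.03, 66.8 and 76.5 against 11.5, 17.0 and 28.3, a log2 difference of 2.01 ± 0.25 (adjusted p 5.25e-08). The lowest knockdown library was again above the highest control library.

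MAN1B1-AS1, 110 bp from the start of the gene of an endoplasmic reticulum mannosidase (chr9:137084946-137086817), had 42.0, 41.2 and 30.4 normalised counts with siJMJD6 and 2.81, 5.05 and 5.22 with siNT. The log2 difference was 2.88, and the transcript was below 10 in every siNT library. DLG5-AS1 was lower still in the controls, at 0, 1.96 and 3.16, and stood at 25.1, 27.3 and 20.6 with siJMJD6, a log2 difference of 3.45. Both passed the filter only through the siJMJD6 libraries, so no test is given for them. SNAI3-AS1, antisense to a SNAIL-family zinc finger gene, had 55.6, 40.2 and 56.0 against 11.5, 7.44 and 15.1 (2.10 ± 0.31, adjusted p 9.95e-07). EPB41L4A-AS1 rose less, from 115, 112 and 159 to 228, 211 and 219 (0.78 ± 0.13, adjusted p 9.63e-06). Without the 4 members that passed through those libraries only, the 27 that rose did so by 0.59 to 2.16 on the log2 scale.

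The differences of the 8 members that fell ran from -0.47 to -1.11. LRRC75A-AS1 went from 1249, 1457 and 1373 to 918, 839 and 935 (-0.60 ± 0.08, adjusted p 6.20e-08), with no overlap between the groups. PRR34-AS1 (chr22:46053705-46057210) went from 95.7, 119 and 128 to 52.9, 54.3 and 54.9 (-1.05 ± 0.19, adjusted p 1.67e-05), although 1 basal library stood at 58.9. THAP9-AS1, beside the transposase-derived gene THAP9, had 21.2, 16.0 and 21.6 against 29.99, 40.6 and 35.4 (-0.82 ± 0.26, adjusted p 0.00874). OIP5-AS1 fell by 0.47 and MMP24-AS1 by 0.57. The other members that fell, TBX2-AS1 (-1.11), RAB30-AS1 (-0.81) and PRRT3-AS1 (-0.51), are named after their values were seen.

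**Figure D2:**
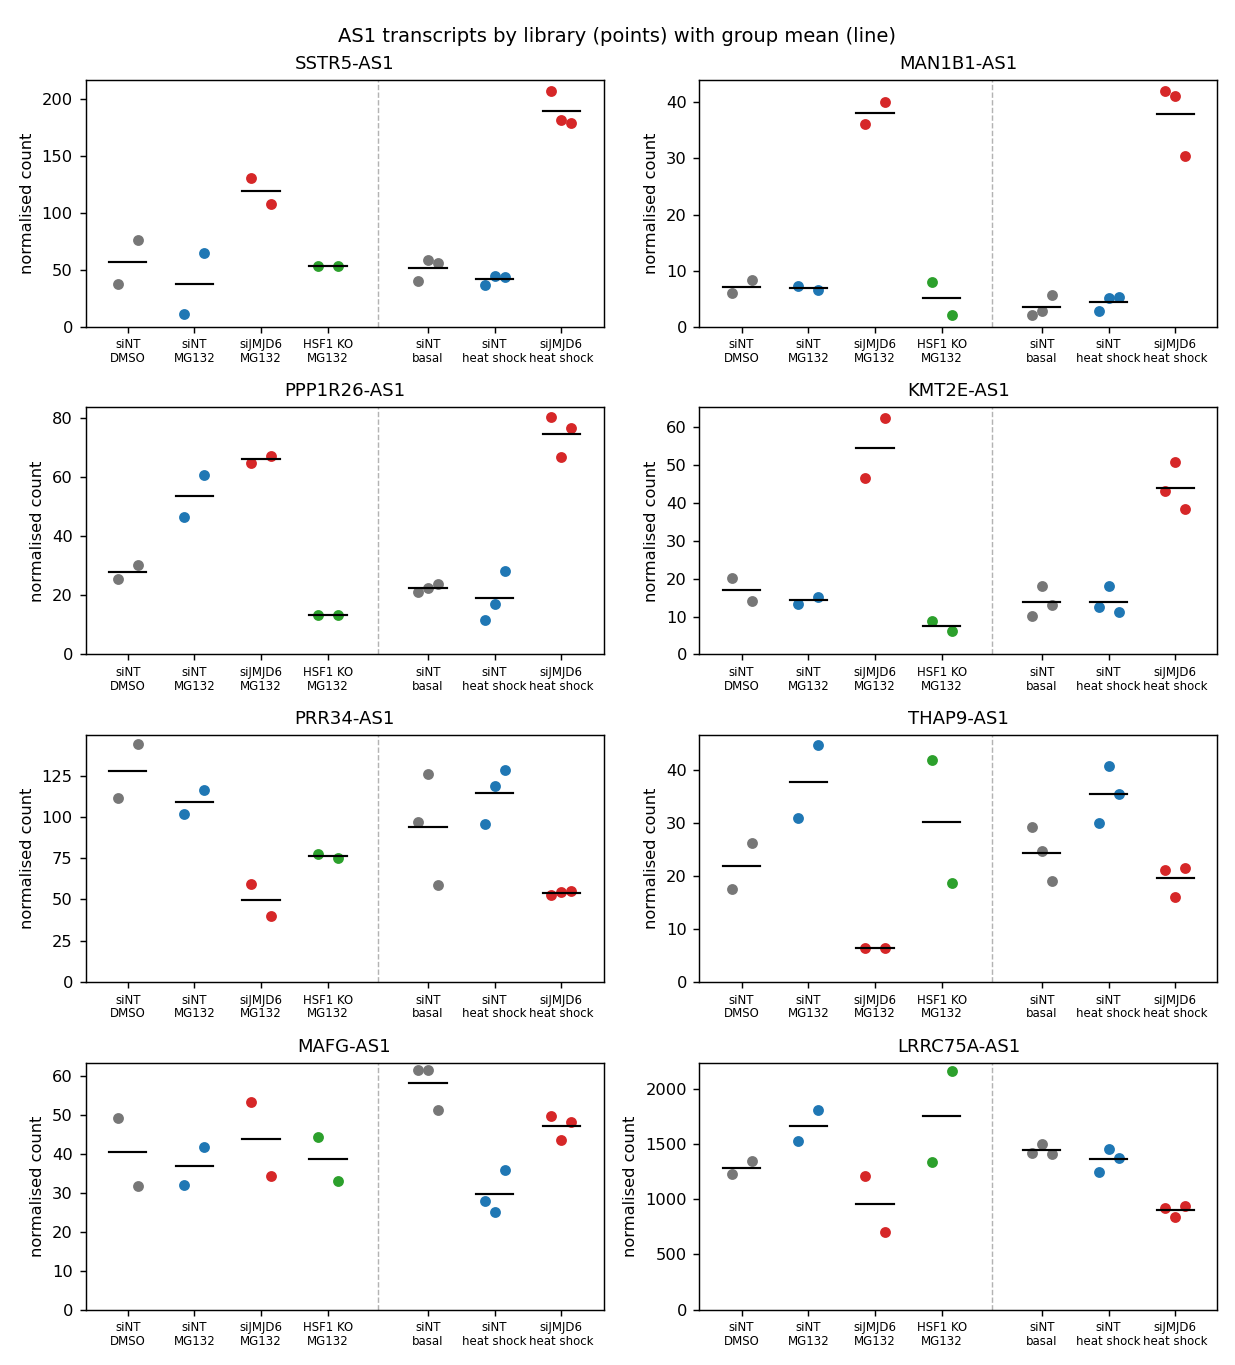
Normalised counts (vertical axis, linear from 0) of 8 AS1 members in each library (points) with the group mean (line), for the 4 groups of the MG132 table and, right of the dashed line, the 3 groups of the heat shock table, which were normalised separately. SSTR5-AS1, MAN1B1-AS1 and KMT2E-AS1 are highest in the siJMJD6 libraries of both tables, and PRR34-AS1 and THAP9-AS1 are low there.

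By position, 22 of the 44 tested head-to-head members rose and 4 fell after heat shock with siJMJD6, and 7 of the 23 that overlapped their partner otherwise or lay inside it rose and 4 fell. Over all tested genes 21.4% rose and 24.9% fell. The 22 include DLG5-AS1, EPHA5-AS1, MAN1B1-AS1 and THAP7-AS1, which passed the filter only through the siJMJD6 libraries and had to differ. The medians were 0.74, with these 4 members included, and 0.46. The difference between these positions was not tested. Of 78 tested long noncoding genes of GENCODE that are not members, 26 rose and 20 fell, with a median of 0.19.

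Under MG132, 13 of the 69 members tested differed between siJMJD6 and siNT cells. Of these, 10 rose and 3 fell, while 6.22% of the 9778 tested genes rose and 7.35% fell. The share of members that rose was 14.5% and the share that fell 4.35%, and the median member effect was 0.55 against -0.05 over all genes. Of 100 tested long noncoding genes of GENCODE that are not members, 14 (14%) rose and 7 (7%) fell, with a median of 0.15. The share of members that rose was thus near that of other long noncoding genes. DSCAM-AS1, LOXL1-AS1, RNF144A-AS1 and RUNDC3A-AS1 were too low to be tested. DLG5-AS1, MAN1B1-AS1 and NOP14-AS1 passed the filter only through the siJMJD6 libraries, and MAN1B1-AS1 was the only member of these 3 among the 10. With 2 libraries a group the counts leaned on single libraries: 2 members were called without siNT MG132 replicate 1, 4 without siJMJD6 replicate 2, and 8 without siJMJD6 replicate 1 or without either HSF1 KO library. Rescaling by TMM moved the median of all genes by -0.11 and the genes called from 608 higher and 719 lower to 467 higher and 863 lower, and 10 members were higher and 4 lower. Without the filter on low values 4 members were called.

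PGM5-AS1 had the largest difference, with 25.4 and 24.2 normalised counts against 2.10 and 0.883 (3.42 ± 0.70, adjusted p 0.00809). It lies on chromosome 9 beside PGM5, in a region with near-identical copies, so the assignment of its reads is uncertain. JMJD1C-AS1, which lies against a downstream start of the histone demethylase-family gene JMJD1C (chr10:63465229-63466563), had 103 and 80.9 against 25.8 and 30.2 (1.67 ± 0.35, adjusted p 0.00855). KMT2E-AS1, with a start 103 bp from a start of the chromatin regulator gene KMT2E (chr7:105013425-105014321), had 46.7 and 62.4 against 13.4 and 15.1 (1.85 ± 0.45, adjusted p 0.0191). In each of these 3 the knockdown libraries were above both control libraries and above both DMSO libraries. MAN1B1-AS1, which passed the filter only through the siJMJD6 libraries and is given without a test, had 36.1 and 40.1 against 7.25 and 6.55, a log2 difference of 2.31. IQCH-AS1 had 59.4 and 50.3 against 6.22 and 17.0 (2.29 ± 0.62, adjusted p 0.0293).

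The 3 members that fell were THAP9-AS1, PRR34-AS1 and NNT-AS1. THAP9-AS1 had 6.45 and 6.42 normalised counts with siJMJD6 against 30.9 and 44.6 (-2.36 ± 0.49, adjusted p 0.00843), lower than in any other group of the table. PRR34-AS1 had 59.6 and 39.9 against 102 and 116 (-1.14 ± 0.30, adjusted p 0.0266). NNT-AS1, with a start 23 bp from a start of the gene of the mitochondrial transhydrogenase NNT, had 3.25 and 0.855 against 19.5 and 6.59 (-2.15 ± 0.67, adjusted p 0.0486). Among the 6 calls given with a test and the smallest p, that of PGM5-AS1 held when any 1 library of the 2 groups was left out. The other 5 were lost in 1 to 3 of the 4 such fits, with adjusted p values of 0.0591 for THAP9-AS1 without siNT replicate 2, 0.0628 for JMJD1C-AS1 without siNT replicate 1, and at most 0.208 (IQCH-AS1).

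The knockdown comparisons in the 2 stresses share no library. Of the 66 members tested in both, 12 were called under MG132 and 39 after heat shock, and 10 were called in both. These 10 had the same direction in both, 8 higher and 2 lower, or 7 and 2 without MAN1B1-AS1, which passed both filters only through the siJMJD6 libraries. They make up 83.3% of the MG132 calls and 25.6% of the heat shock calls. Over all 9379 genes tested in both, 82.3% of the MG132 calls were called in the same direction after heat shock, so the members' share was near that of all genes. Across the 66 members the sign of the difference was the same in 53, with a Pearson r of 0.75 and a Spearman rho of 0.78. The r over all genes was 0.70. The number called in both was 1 without siNT MG132 replicate 1, 2 without siJMJD6 MG132 replicate 2 and 6 without either of the other libraries of those MG132 groups. It was 3 without the filter on low values and 17 with a pseudocount of 10.

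**Figure D3:**
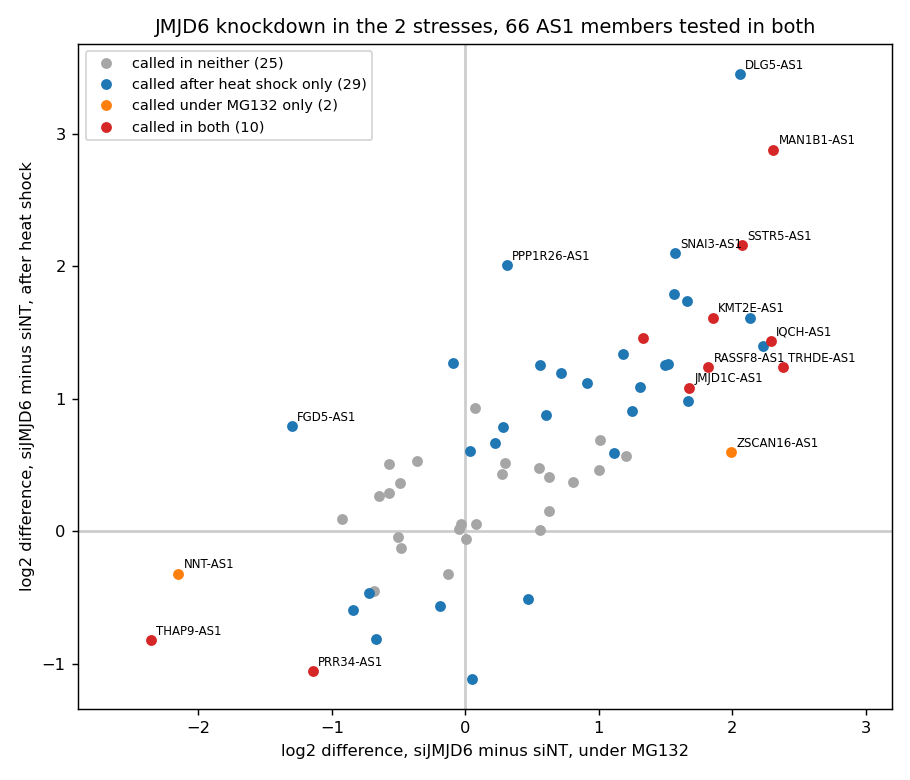
Log2 difference between siJMJD6 and siNT cells under MG132 (horizontal) and after heat shock (vertical) for the 66 AS1 members tested in both tables, coloured by where the member was called. The 10 members called in both lie in the upper right (8) and lower left (2), and FGD5-AS1 lies in the upper left.

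The sizes in the 2 stresses were close for some members and apart for others. KMT2E-AS1 had 43.1, 50.7 and 38.3 normalised counts with siJMJD6 after heat shock against 12.5, 18.1 and 11.2, a difference of 1.61, beside 1.85 under MG132. TRHDE-AS1 differed by 2.38 under MG132 and by 1.24 after heat shock. PPP1R26-AS1 differed by 0.31 ± 0.35 under MG132, where its siNT libraries were at 46.3 and 60.6, and by 2.01 after heat shock. Whether a member's effect differed between the stresses was not tested.

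HSF1 KO cells were compared with siJMJD6 cells under the same MG132 treatment, a comparison that shares the siJMJD6 libraries with the knockdown comparison above. Here 16 of the 69 tested members differed, 4 higher and 12 lower in HSF1 KO cells, while 11.1% of all tested genes were higher and 9.69% lower. The shares of members were 5.80% and 17.4%, and the median member effect was -0.51 against 0.05. Of 100 tested long noncoding genes that are not members, 12 (12%) were higher and 19 (19%) lower, with a median of -0.32. The share of members that were lower was thus near that of other long noncoding genes. DLG5-AS1, MAN1B1-AS1 and NOP14-AS1 passed the filter only through the siJMJD6 libraries, which are 1 side of this comparison. Without these 3 the counts were 4 higher and 11 lower of 66. KMT2E-AS1 had 8.90 and 6.23 normalised counts in HSF1 KO cells and 46.7 and 62.4 with siJMJD6 (-2.70 ± 0.45, adjusted p 0.00150). PPP1R26-AS1 had 13.4 in both HSF1 KO libraries against 64.7 and 67.1 (-2.21 ± 0.35, adjusted p 0.00116). ASH1L-AS1, beside a histone methyltransferase gene, had 2.59 and 4.16 against 48.7 and 27.0 (-3.12 ± 0.58, adjusted p 0.00299). In these 3 the 2 groups did not overlap.

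THAP7-AS1 (-4.66 ± 0.83) and SNAI3-AS1 (-3.95 ± 0.79) had the most negative differences of the 69, but their HSF1 KO values were near 0, at 0.793 and 0.0289 for THAP7-AS1 and at 6.20 and 0.0325 for SNAI3-AS1, so the sizes depend on the added 1. THUMPD3-AS1 fell by 2.41 and RASSF8-AS1 by 2.52 in the same comparison. The 4 higher members were NNT-AS1 (2.98), THAP9-AS1 (1.96), FGD5-AS1 (1.40) and LRRC75A-AS1 (0.88), the last 2 named after their values were seen. Without HSF1 KO library A, 10 members were called.

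Against siNT cells under MG132, HSF1 KO cells differed in 1 of the 69 members by limma. It fell, and no member rose, while 0.276% of all tested genes were higher and 1% lower. At an unadjusted p under 0.05 there were 4 higher (5.80%) and 6 lower (8.70%), against 5.88% and 6.93% of all tested genes. PPP1R26-AS1 was the member that fell, with 13.4 and 13.4 normalised counts against 46.3 and 60.6 (-1.90 ± 0.35, adjusted p 0.0178). Its DMSO libraries lay between, at 25.3 and 30.2. The call was lost without the filter on low values and when any 1 of the 4 libraries was left out, with adjusted p values up to 0.150. The next smallest p values were those of APCDD1L-AS1, with 15.3 and 6.23 against 42.2 and 35.1 (-1.86 ± 0.48, adjusted p 0.0957), and PGM5-AS1 (2.31 ± 0.70, adjusted p 0.159). APCDD1L itself, whose start is 248 bp from that of APCDD1L-AS1, had 0 and 6.23 normalised counts in HSF1 KO cells and 71.0 and 41.6 in siNT cells (adjusted p 0.0284), and was not called without 3 of the 4 libraries in turn.

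The stress treatments in siNT cells moved few members. After MG132, 0 of the 69 tested members changed by limma, beside 0.205% of all tested genes that rose and 0.0614% that fell. At an unadjusted p under 0.05, 2 members were higher and 2 lower (2.90% each), against 2.74% and 2.92% of all tested genes. The smallest p values were those of ZBED5-AS1, with 18.6 and 20.8 normalised counts against 2.46 and 8.29 in DMSO (1.86 ± 0.53, adjusted p 0.391), TRHDE-AS1 (-1.98 ± 0.66, adjusted p 0.586) and PPP1R26-AS1 (0.91 ± 0.35, adjusted p 0.745). The median member effect was -0.17 against -0.005 over all genes. This comparison and the knockdown and knockout comparisons with siNT under MG132 share the siNT MG132 libraries.

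After heat shock, 2 of the 70 tested members fell and 0 rose by limma, while 2.86% of all tested genes rose and 1.23% fell. At an unadjusted p under 0.05, 3 members were higher and 3 lower (4.29% each), against 8.37% and 6.70% of all tested genes. Without the filter on low values 1 member was called. MAFG-AS1, antisense to the gene of the small MAF transcription factor MAFG, had 27.9, 25.0 and 35.8 normalised counts after heat shock and 61.5, 61.3 and 51.1 at basal conditions (-0.96 ± 0.20, adjusted p 0.00211). NCK1-AS1, 154 bp from the start of the adaptor protein gene NCK1 (chr3:136841726-136862054), had 13.5, 14.0 and 14.3 against 31.9, 23.2 and 31.6 (-0.99 ± 0.27, adjusted p 0.0294). Neither pair of groups overlapped. The NCK1-AS1 call was lost in 5 of 6 fits without 1 library, with adjusted p values up to 0.141. PSMA3-AS1 had the next smallest p, with 34.8, 40.9 and 43.3 against 27.3, 29.5 and 20.5 (0.61 ± 0.22, adjusted p 0.145). In the heat-shocked siJMJD6 libraries MAFG-AS1 stood at 49.6, 43.6 and 48.0 (0.67 against heat-shocked siNT, adjusted p 0.00667) and NCK1-AS1 at 19.1, 30.7 and 31.4 (0.88, adjusted p 0.00881). Those differences rest on the same siNT heat shock libraries as the heat shock effect.

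The sense partners were read beside the members. After heat shock with siJMJD6, 56 partners were tested, and 7 (12.5%) rose and 18 (32.1%) fell, with a median of -0.12, against 21.4% and 24.9% of all tested genes. In 53 pairs both sides were tested. Both sides were called in 12 of these pairs, in 9 with the member higher and the partner lower and in 3 with both higher. In 12 further pairs the member rose and the partner was not called. The sign differed between member and partner in 33 of the 53 pairs, and the Pearson r across pairs was 0.07, over points that share libraries. The members of 19 of the pairs share no exon bases with the partner's exons, and there the sign differed in 10. No test of the difference between member and partner was made.

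**Figure D4:**
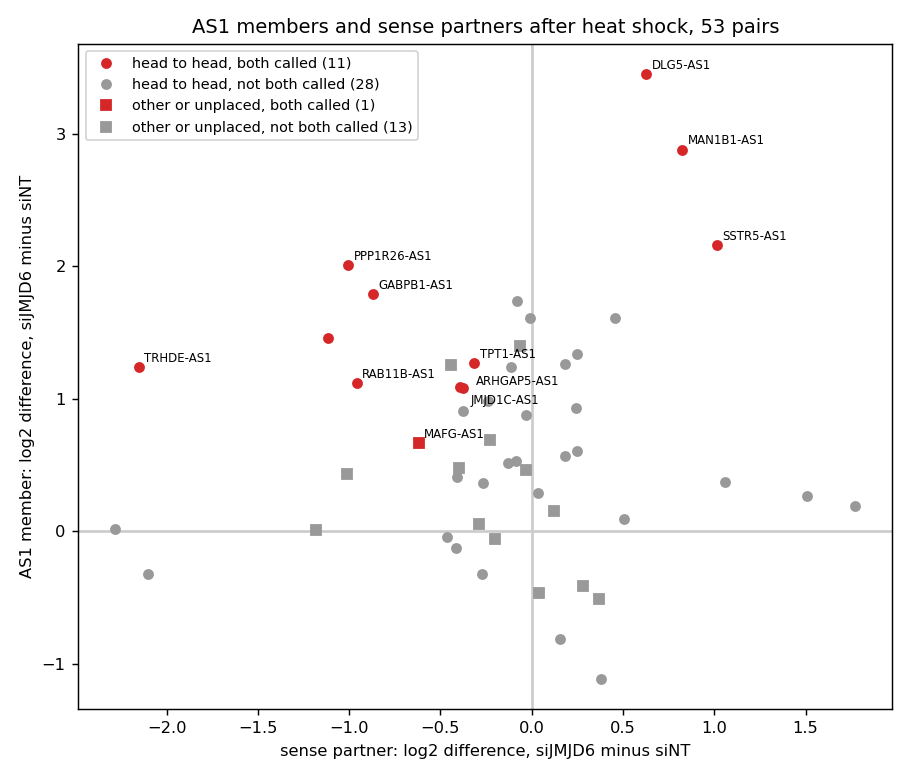
Log2 difference between heat-shocked siJMJD6 and siNT cells for the sense partner (horizontal) and the AS1 member (vertical) in 53 pairs, with head-to-head pairs as circles, other or unplaced pairs as squares, and pairs with both sides called in red. Of the 12 red pairs, 9 lie in the upper left and 3 in the upper right.

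Among the 9 pairs with the member higher and the partner lower, PPP1R26 fell from 66.7, 64.3 and 55.0 normalised counts to 29.7, 30.9 and 30.4 after heat shock with siJMJD6 (-1.004 ± 0.20, adjusted p 7.24e-05), opposite to PPP1R26-AS1, and these genes share no exon bases. Other such pairs, named after their values were seen, included those of JMJD1C, GABPB1, MAFG, ARHGAP5, RAB11B, TPT1 and TRHDE. TRHDE, of a peptidase that degrades thyrotropin-releasing hormone, had the most negative partner difference among the 9, with 1.16, 8.55 and 1.92 against 14.5, 25.6 and 11.8 (-2.15 ± 0.46, adjusted p 0.000231), while TRHDE-AS1 had 29.5, 48.5 and 37.3 against 10.6, 20.6 and 16.7.

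The 3 pairs in which both sides rose were those of MAN1B1, DLG5 and SSTR5. MAN1B1 had 243, 224 and 246 normalised counts with siJMJD6 against 142, 142 and 118 (0.83 ± 0.13, adjusted p 3.09e-06), and DLG5, of a scaffold protein, 437, 349.5 and 429 against 229, 249 and 312 (0.63 ± 0.11, adjusted p 2.46e-05). SSTR5 had 29.5, 22.3 and 23.5 against 17.4, 11.6 and 8.22 (1.01 ± 0.30, adjusted p 0.00529), and in siNT cells it fell with heat shock from 39.3, 27.2 and 23.2 (-1.23 ± 0.30, adjusted p 0.00903). Both SSTR5 differences rest on the same siNT heat shock libraries. Of these 3 members, MAN1B1-AS1 and DLG5-AS1 passed the filter only through the siJMJD6 libraries. Under MG132, NNT stood lower with siJMJD6, as did NNT-AS1, at 0.0435 and 0 against 5.16 and 6.62 (adjusted p 0.0251 by limma). NNT was below 10 in all these libraries and passed the filter only through the HSF1 KO libraries (14.6 and 16.4), so the size depends on the added 1. PGM5 rose with PGM5-AS1 under MG132, from 27.9 and 33.0 to 73.4 and 116 (1.58 ± 0.38, adjusted p 0.0194).

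RNA decay and 3′-end factors were read as lists beside the members. Of 23 tested genes of the nuclear exosome and its adaptors, 4 (17.4%) rose and 8 (34.8%) fell after heat shock with siJMJD6, with a median of -0.04, against 21.4% and 24.9% of all tested genes. MPHOSPH6, an exosome-associated protein, fell by 0.92 ± 0.09 (adjusted p 6.13e-10), and EXOSC7, a ring subunit, fell by 0.60 (adjusted p 0.000295). ZC3H18, which links the cap-binding complex to the exosome, rose by 1.05 ± 0.11 (adjusted p 1.42e-09), and the ring subunit EXOSC4 rose by 0.96 (adjusted p 1.48e-08). Of the 17 genes of 3′-end cleavage, polyadenylation and termination, 1 (5.88%) rose and 8 (47.1%) fell, with a median of -0.40, against the same shares of all genes. CPSF2 fell by 1.37 ± 0.16 (adjusted p 8.51e-09) and CPSF4 by 1.25 ± 0.15 (adjusted p 1.81e-08), both of the complex that reads the poly(A) signal. The poly(A) polymerase PAPOLA fell by 0.56 and the cleavage factor subunit NUDT21 by 0.55. Their part in the levels of the members was not tested.

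Under MG132 the same lists gave 1 higher and 4 lower of 23 and 0 higher and 3 lower of 17 for siJMJD6 against siNT by limma, with 0 of the 17 higher also at an unadjusted p under 0.05. Over all tested genes 6.22% rose and 7.35% fell. MPHOSPH6 fell by 1.26, EXOSC7 by 1.37 and SRRT, a cap-binding adaptor, by 0.89, while EXOSC4 rose by 1.66. FIP1L1 fell by 1.05, CPSF2 by 0.90 and PAPOLA by 0.74. Between HSF1 KO and siJMJD6 cells 7 of the exosome list were higher and 1 lower in the knockout (30.4% and 4.35%, against 11.1% and 9.69% of all tested genes), among them EXOSC3 (2.14), MPHOSPH6 (1.35), EXOSC7 (1.13) and EXOSC4 (-1.54), and 2 of the 3′-end list were higher, CPSF6 (1.18) and CPSF2 (0.80). Heat shock alone moved 1 gene of the exosome list, the noncanonical poly(A) polymerase PAPD5, which rose by 1.07 ± 0.13 (adjusted p 3.94e-07). Few transcripts named by another place suffix (-AS2, -AS3, -DT, -IT1 or -OT1) were high enough to test. After heat shock 5 were tested and 2 rose with siJMJD6, against 21.4% of all tested genes. Under MG132, 6 were tested and 1 rose, against 6.22% of all tested genes. These numbers are too small to set against those shares.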

How the data were processed

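RNA of PC3M cells was sequenced from the 3′ end with the QuantSeq FWD kit, per the labels' protocols. The submitters' processing notes name FastQC 0.11.2, STAR 2.6.0, HTSeq and hg38. No source used here gives the annotation, the strand setting, the filter or the scaling. The authors deposited 2 tables of normalised counts, a scaled read signal per gene with decimals, which are not raw counts. Reads could not be recovered from them, so limma 3.58.1 in R 4.3.3 was run with a mean-variance trend on log2(normalised count + 1), each table on its own with all its groups. A gene was tested if it had 10 or more normalised counts in at least 2 (MG132) or 3 (heat shock) libraries. Benjamini-Hochberg adjustment ran over all tested genes, and adjusted p under 0.05 made a call. Errors of differences are standard errors. Because the values carry no raw counts, sequencing depth is unknown. The fit was tested on simulated data.

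The members and gene lists were chosen with earlier results of these data known. Named by rule were the label checks, the 8 members with the smallest adjusted p in each comparison (3 by p where fewer than 3 were called), their partners, the 5 highest members of each table, the symbols beside the level limit and up to 4 called genes of each list. A few items that this rule or the marker lists would name are not reported here, although counts over members include them. Members were placed with GENCODE 29 and RefSeq synonyms, and sequences were read from GENCODE 29 and RefSeq files of GRCh38. Alternatives were another pseudocount, no filter or a filter on the mean, TMM and quantile rescaling, 2-group fits, a replicate block, stricter membership and leaving out each library.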

Additional observations from a re-analysis of the deposited data

Results flagged for a closer look

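FGD5-AS1, which overlaps FGD5 (chr3:14920347-14948424), stood lower in every siJMJD6 library than in every siNT library under MG132 and higher in every one after heat shock. It had 9.65 and 20.4 normalised counts against 49.4 and 26.5 under MG132 (log2 difference -1.30, adjusted p 0.0778 by limma) and 74.9, 69.0 and 84.3 against 36.6, 46.0 and 48.5 after heat shock (0.79, adjusted p 0.000658). PRRT3-AS1 moved the other way, with 51.0 and 54.0 against 34.0 and 41.6 under MG132 (0.47, adjusted p 0.493) and 33.9, 33.0 and 37.2 against 41.5, 52.9 and 55.9 after heat shock (-0.51, adjusted p 0.0490). The difference between the stresses was not tested in either, and neither passed the test under MG132. Both were picked for this opposite separation from the 66 members tested in both stresses. How many of all genes meet the same rule was not counted.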

How the results depend on the processing

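Groups of 2 and 3 libraries and levels near 10 normalised counts limited what could be called. Without a filter on low values, 4 members were called for siJMJD6 against siNT under MG132 (13 with the filter), 0 for HSF1 KO against siNT (1), 1 for heat shock (2), and 3 in both stresses (10). With a pseudocount of 10, 17 members were called in both stresses. With the replicate number as a block, 20 were called for siJMJD6 under MG132 and 17 in both stresses, and the counts for MG132 and for the heat shock table did not move by over 1.5 times. The block rests on the numbers in the titles, which for the siNT and siJMJD6 libraries of the MG132 table are X1 and X2. The labels do not say what they stand for. The correlation of same-numbered libraries' deviations ran from -0.03 to 0.09 for heat shock. For MG132, where there are 2 numbers, siNT DMSO gave 0.37 with siNT MG132 and 0.32 with siJMJD6 MG132. Between siNT MG132 and siJMJD6 MG132 it was 0.04. No paired analysis was possible because of the letters A and B for the HSF1 KO comparisons.

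Leaving out 1 library of the table at a time gave 2 to 14 called members for siJMJD6 under MG132, 0 to 1 for HSF1 KO against siNT, 10 to 17 for HSF1 KO against siJMJD6, 1 to 2 for heat shock, 30 to 40 for siJMJD6 after heat shock, 0 for MG132 in siNT cells, and 1 to 12 in both stresses. A member group with 1 library left was assumed to vary like the others. Of 37 named effects of members and partners, 31 of them called, none changed direction in any alternative. Calls were lost in 6 without the filter, 1 in the 2-group fit, 1 with a pseudocount of 10 and 29 of the fits without 1 library of the compared groups. The filter on the mean over all libraries and the count without members that passed through 1 group were added after seeing the data and left every count within 1.5 times. TMM and quantile rescaling also did.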
